A study of Mus musculus with 6 samples.

Results

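Blood coagulation factors and tissue factor were described in mouse epithelioid hemangioendothelioma (EHE), a tumour of endothelial cells, and in liver, the organ that makes most circulating clotting factors. The 10 genes were chosen by symbol (F2, F3, F5, F7, F8, F9, F10, F11, F13a1 and F13b) from 55401 genes in the count table. All 10 were measured and all 10 passed the filter on low counts, as did 17387 genes in all. Polyadenylated RNA was sequenced from 3 EHE tumours of the peritoneal surface and 3 livers, all from C57BL6 mice. The series title calls the tumour animals a genetically engineered model, while the labels give no allele, driver, age, sex or treatment for either group. Whether the 3 samples of a group are 3 animals is not said in the labels, so the p-values speak only to the spread among these samples, and that spread may be technical. Values are given in the order of libraries 1, 2 and 3. Tumour state and tissue differ together between the groups and cannot be told apart. In bulk tissue, fewer cells of a type and less RNA per cell cannot be told apart either.

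Coagulation begins when tissue factor, a membrane protein outside the bloodstream, binds circulating factor VII. Factor VII, factor IX, factor X and prothrombin are serine protease precursors that hepatocytes secrete after vitamin K-dependent carboxylation, and factor XI is a further hepatocyte protease that activates factor IX. Factors V and VIII are related cofactors, the first made by hepatocytes and by megakaryocytes, the second mainly by endothelial cells, in liver those of the sinusoids. Factor XIII crosslinks fibrin; its catalytic A subunit (F13a1) is made by macrophages and megakaryocytes and its carrier B subunit (F13b) by hepatocytes.

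The labelled tissues were checked against marker genes. All 10 hepatocyte markers fell in tumours and summed to 160456 to 229065 CPM (counts scaled to library size by the TMM method) in livers against 7.76 to 15.5 in tumours. All 12 vascular endothelial markers rose, with sums of 2898 to 6026 CPM in tumours and 229 to 302 in livers. Of the markers of other cells, 6 of 6 for skeletal muscle, 7 of 8 for fibroblasts, 5 of 6 for mesothelium, 3 of 5 for bile duct and epithelium and 2 of 6 for red cells rose, and none of these fell. The red cell sums overlapped between the groups, at 3728, 911 and 5055 CPM in tumours and 1788, 1035 and 939 in livers. Library totals ran from 33881392 to 40277346 counts. Tumour 2 stood apart among the tumours. Its macrophage markers summed to 4851 CPM against 1333 and 1059 in tumours 1 and 3, its skeletal muscle markers to 10508 against 1407 and 2506, its mesothelial markers to 248 against 80.3 and 76.7, and its vascular endothelial markers to 2898 against 6026 and 5230. Liver 2 had counts for 33274 genes, against 19767 and 19001 in livers 1 and 3.

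Of the 10 genes, 8 fell in tumours, 1 rose and 1 did not pass the test. Over all 17387 genes tested, 28.7% were called lower, 29.5% higher and 58.2% either by edgeR's quasi-likelihood test at an adjusted p under 0.05. The genes that fell were F2, F5, F7, F8, F9, F10, F11 and F13b, the gene that rose was F13a1, and F3 did not pass. The median log2 fold change of the 10 genes was -5.30, against 0.10 over all genes tested. Each of the 10 genes separated the groups without overlap, where 68.2% of genes tested did. All 3 tumours lay below all 3 livers for 9 of them (33.1% of genes tested) and above for F13a1 (35.1%). F2, F9, F11 and F13b held 14, 17, 4 and 4 counts in the 3 tumours together. F5, F7, F8 and F10 held 7496, 813, 222 and 3315.

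**Figure D1:**
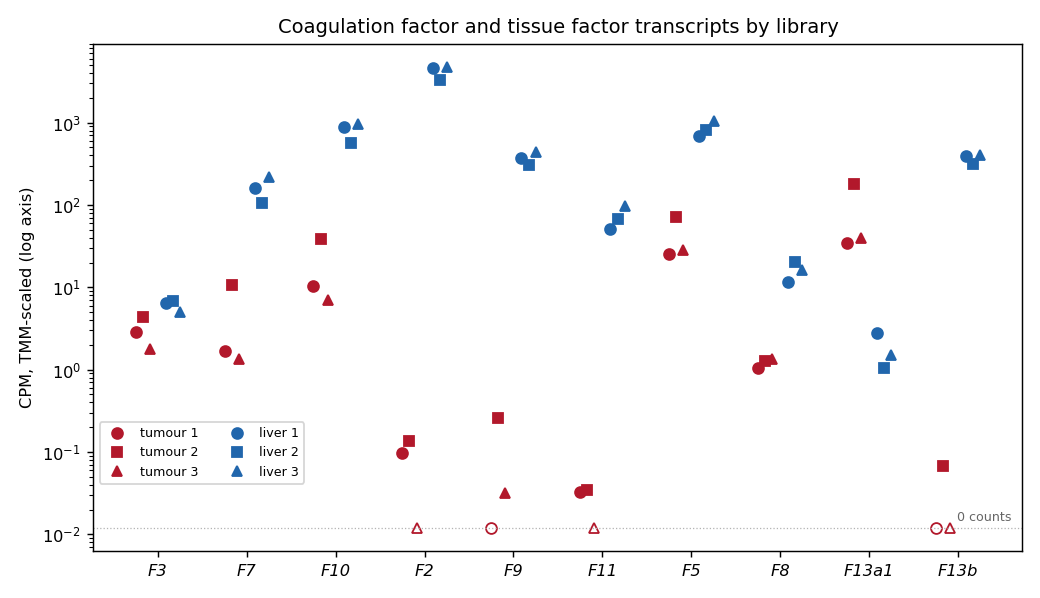
Each point is the level of 1 gene in 1 library in TMM-scaled CPM on a log axis, tumours in red and livers in blue, with open symbols on the dotted line for libraries with 0 counts. F13a1 is the one gene higher in tumours, the F3 points lie close together, and F2, F9, F11 and F13b are at or near 0 counts in tumours.

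The order of levels within a tissue was compared with the deposited FPKM values, which are scaled by transcript length. In livers F2 led with 1249 ± 266 FPKM (SD, n = 3), followed by F10 with 268 ± 72.0, and both stood clear of the next gene in every liver. F13b, F9, F5 and F7 followed with means from 89.3 to 52.5 FPKM, and the ranges of neighbours in that stretch overlapped. F11 had 17.7 ± 6.54 FPKM, F3 1.91 ± 0.213, F8 1.15 ± 0.270 and F13a1, the lowest, 0.261 ± 0.147. In tumours F13a1 led with 28.2 ± 26.1 FPKM, before F10 with 12.6 ± 11.2, F5 with 7.40 ± 4.17, F7 with 3.32 ± 3.77 and F3 with 2.23 ± 0.902, and the ranges of neighbours in that stretch overlapped. F8 had 0.198 ± 0.0154 FPKM and lay apart from F3 above and F9 below. F2 made up 67.0% to 70.1% of the summed FPKM of the 10 genes in livers, and F13a1 44.4% to 54.4% in tumours.

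**Figure D2:**
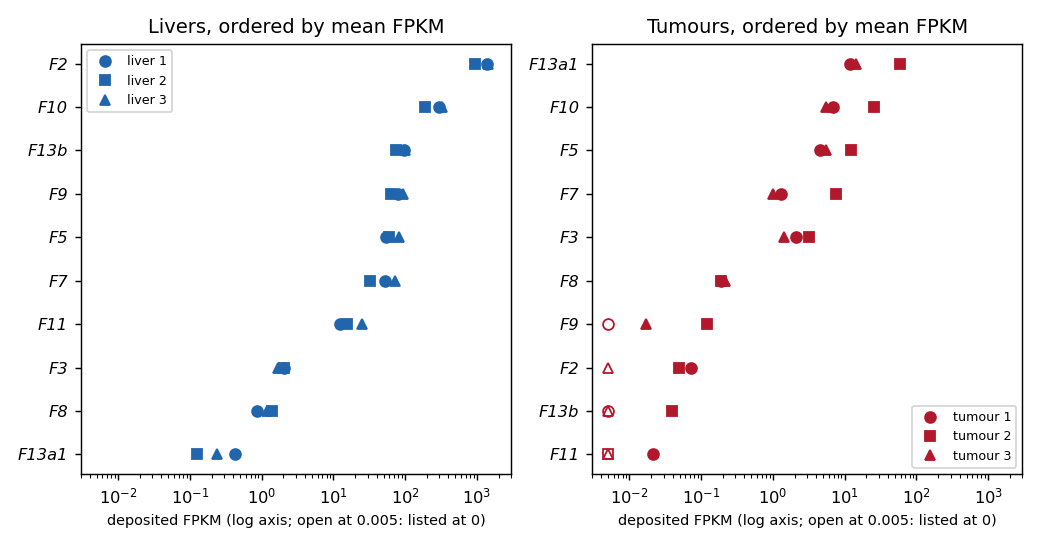
Deposited FPKM of the 10 genes on a log axis, 1 point per library, with livers on the left and tumours on the right, each ordered by its mean and with values listed at 0 drawn open. F13a1 is last in livers and first in tumours, F2 is first in livers with 1249 FPKM, and F10 is second in both.

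Tissue factor and its partner factor VII, which start the cascade, moved differently. F3 (tissue factor, ENSMUSG00000028128, chromosome 3, 121723537 to 121735048, GRCm38) had 2.88, 4.41 and 1.76 CPM for tumours and 6.37, 6.76 and 5.08 CPM for livers, from 110 to 258 counts per library. Every tumour lay below every liver on this scale, with the nearest pair at 4.41 and 5.08. The log2 fold change was -1.01 (SE 0.40), and edgeR's test was not passed (adjusted p = 0.0647, alternatives from 0.0153 to 0.697). The direction of F3 rested on the scaling. With library totals alone, which moved the median change of all genes from 0.10 to 1.38, the fold change was 0.26 on the log2 scale (edgeR adjusted p = 0.584), and in deposited FPKM tumours had 2.07, 3.20 and 1.42 against 2.03, 2.04 and 1.66 in livers, which overlap. Without tumour 2 it was -1.38 and passed (edgeR adjusted p = 0.0153). It also passed with DESeq2 (adjusted p = 0.0313), with limma-voom (adjusted p = 0.0433) and when the libraries numbered 2 were left out (edgeR adjusted p = 0.03). Relative to the vascular endothelial markers, F3 was far lower in tumours. Per 1000 CPM of those markers, the tumours had 0.478, 1.52 and 0.337 CPM of F3 and the livers had 27.7, 23.1 and 16.8. The log2 difference was -5.14 (exact two-sided permutation test over samples, p = 0.1, the smallest that 3 against 3 allows). Most of it lies in the markers, which summed to 2898 to 6026 CPM in tumours and 229 to 302 in livers. Whether F3 came from endothelial cells in either tissue was not tested.

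F7 (factor VII, ENSMUSG00000031443, chromosome 8, 13026034 to 13035809) had 162, 107 and 222 CPM for livers and 1.70, 10.7 and 1.35 CPM for tumours. Tumour 2 was the highest tumour and still lay below every liver. F7 fell by 5.16 on the log2 scale (SE 0.91, edgeR adjusted p = 0.00265), and its log2 fold change was -6.74 without tumour 2. The start sites of F3 and F7 are printed as the pair that begins the cascade. The 250 bases before each start site come from RefSeq (GRCm38.p6), 5′ to 3′ on the strand of the gene. For F3 (chr3:121723287-121723536, plus strand) capitals mark TGANTCA, the AP-1 motif, and GGGCGG or its reverse complement, the GC box. For F7 (chr8:13025784-13026033, plus strand) capitals mark TGACCTTTG, which holds a nuclear receptor half-site of the kind that HNF4, a hepatocyte transcription factor, can bind.
F3: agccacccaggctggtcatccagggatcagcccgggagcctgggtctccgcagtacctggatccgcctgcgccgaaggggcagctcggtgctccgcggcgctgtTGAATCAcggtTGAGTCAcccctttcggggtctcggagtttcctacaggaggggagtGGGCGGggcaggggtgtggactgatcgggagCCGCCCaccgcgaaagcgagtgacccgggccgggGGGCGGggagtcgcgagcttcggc
F7: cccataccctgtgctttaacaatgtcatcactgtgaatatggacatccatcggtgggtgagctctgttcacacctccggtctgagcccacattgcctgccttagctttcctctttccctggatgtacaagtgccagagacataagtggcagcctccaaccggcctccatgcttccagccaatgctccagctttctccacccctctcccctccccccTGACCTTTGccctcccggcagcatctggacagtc

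The F3 window held AP-1 letters at -146 and -135 and GC boxes at -89, -58 and -24 relative to the start site. AP-1 letters occurred in 6.75% and GC boxes in 32.7% of 32851 promoter windows of this length, on either strand, and the AP-1 motif reads the same on both strands. Among the 10 genes AP-1 letters were also in the window of F2, and a GC box in that of F5. The start site of the F2 window did not pass a check against annotated transcripts. TGACCTTTG occurred at -34 before F7, in 0.426% of all windows, and in no other window of the 10 genes. Such matches describe the letters only. The other letters searched on both strands included GGAATG (TEAD, in 12.6% of windows and in those of F5, F8 and F9) and CCAAT (33.8%, F7 and F13a1). CCGGAA (ETS), GGGNNTTCC (NF-kB, 4.98%) and TATAAA (12.4%) were also searched, and no window of the 10 genes held those exact letters. The F3 window does hold ggagtttcc, a near match to GGGNNTTCC that the search did not count. A window without the exact letters may still hold a site. Of the genes listed as regulators of tissue factor, the AP-1 subunits Fos and Jun rose by 4.69 (SE 0.46) and 3.55 (SE 0.28) on the log2 scale with edgeR. Tfpi, the inhibitor of the complex of tissue factor and factor VII, had 103 ± 44.9 CPM (SD, n = 3) among tumours against 7.70 ± 1.16 among livers, a rise of 3.75 (SE 0.39, edgeR adjusted p = 0.000229).

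Among the other hepatocyte proteases, F10 held 441 to 2246 counts per tumour, while F2, F9 and F11 held 0 to 15. F10 (factor X, ENSMUSG00000031444, chromosome 8, 13037308 to 13056676) starts 1499 bases after F7 ends on the same strand. It had 874, 574 and 960 CPM for livers and 10.3, 38.4 and 7.07 CPM for tumours. As with F7, tumour 2 was the highest tumour and all tumours lay below all livers. F10 fell by 5.43 (SE 0.76, edgeR adjusted p = 0.0009), and its log2 fold change was -6.52 without tumour 2. The mean left in tumours was 2.32% of the liver mean for F10 and 2.80% for F7. Per 1000 CPM of hepatocyte markers, F10 was 753, 2479 and 911 CPM for tumours against 4.67, 3.58 and 4.19 for livers. These ratios rest on different genes. Most of the marker sum was Cyp2e1 in tumours and Alb in livers (141010, 120343 and 181289 CPM of 186890, 160456 and 229065). The source of F10 and F7 in tumours was not tested.

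F2 (prothrombin, the precursor of thrombin, ENSMUSG00000027249, chromosome 2, 91625320 to 91636414) had 114934, 75870 and 114778 counts for livers and 6, 8 and 0 for tumours. In CPM, livers had 4229 ± 815 and tumours 0.0783 ± 0.0705 (SD, n = 3). The ratio of livers to tumours was 55191 (95% exact binomial interval from 32894 to 100952, which like those below covers only counting error). F9 (factor IX, ENSMUSG00000031138, chromosome X, 59999464 to 60030759) had 9285, 7095 and 10683 counts for livers and 0, 15 and 2 for tumours, and 375 ± 66.7 CPM in livers. Tumour 2 held 15 of the 17 tumour counts. The ratio was 4025 (95% exact interval from 2514 to 6911). F11 (factor XI, ENSMUSG00000031645, chromosome 8, 45241174 to 45262031) had 1247, 1563 and 2375 counts in livers and 2, 2 and 0 in tumours, a ratio of 3278 (95% exact interval from 1279 to 12034). Each of F2, F9 and F11 was at 0 counts in at least 1 tumour. Fitted log2 fold changes at such counts depend on the prior count; they were -15.68 (SE 1.02) for F2, -11.91 (SE 1.01) for F9 and -11.50 (SE 0.58) for F11, with edgeR adjusted p of 3.38e-05, 9.6e-05 and 1.43e-05. For F2 the value was -16.31 without tumour 2 and -15.09 without tumour 3, and for F9 it was -14.23 without tumour 2 and -11.32 without tumour 1.

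The F9 window is shown as that of a liver protease with next to no counts in tumours (chrX:59999214-59999463, plus strand, RefSeq GRCm38.p6). Capitals mark CAAAGTNC on its reverse strand, an HNF4-type motif, at -55 from the start site, and TTGCNNAA, a C/EBP motif, at -24.
F9: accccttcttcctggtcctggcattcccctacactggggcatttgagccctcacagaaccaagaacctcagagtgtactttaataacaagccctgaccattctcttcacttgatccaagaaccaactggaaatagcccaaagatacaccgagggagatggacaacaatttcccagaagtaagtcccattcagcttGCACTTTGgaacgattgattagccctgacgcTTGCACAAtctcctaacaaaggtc

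CAAAGTNC occurred in 3.4% of all windows and in F9 alone among the 10 genes. TTGCNNAA occurred in 9.56% of windows, and in those of F9 and F11. The HNF1 half-site GTTAAT, found in 6.43% of windows, was in that of F13b. The HNF4 gene Hnf4a, 1 of the hepatocyte markers, had 2, 0 and 12 counts for tumours and 21598, 17060 and 31616 for livers.

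Both cofactors fell, F8 while vascular endothelial markers rose. F8 (factor VIII, ENSMUSG00000031196, chromosome X, 75172715 to 75382615) had 1.05, 1.28 and 1.33 CPM for tumours, from 64, 75 and 83 counts, and 11.7, 20.2 and 16.1 CPM for livers, from 288, 466 and 389 counts. The tumours lay close together and far below all livers. F8 fell by 3.71 on the log2 scale (SE 0.31, edgeR adjusted p = 7.72e-05), at a log2 fold change of -2.43 with library totals alone, and the value ran from -3.86 to -3.48 when 1 library was left out. The gene Fundc2 lies on the opposite strand within the F8 locus and shares no exonic base with it. Carriers and receptors of factor VIII did not follow 1 direction. Vwf, the plasma carrier that protects factor VIII, rose by 1.70 (SE 0.35, edgeR adjusted p = 0.00483), with 13.8 ± 4.37 CPM among tumours against 4.25 ± 1.13 among livers. Lman1 and Mcfd2, which form the receptor that exports factors V and VIII from the endoplasmic reticulum, had log2 fold changes of -1.79 (SE 0.20) and -2.70 (SE 0.20) with edgeR. Of 6 genes of clearance receptors for factor VIII and its carrier, 4 fell, 1 rose and 1 did not pass, with a median of -3.54. Stab2, an endothelial scavenger receptor of liver sinusoids, had a log2 fold change of -4.35 (SE 0.36). The asialoglycoprotein receptor genes Asgr1 and Asgr2 held 0 to 4 and 15 to 47 counts per tumour, against at least 17507 and 8916 per liver. Scara5, a scavenger receptor, rose, with 155 to 392 counts per tumour and 0 to 6 per liver.

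F8 was then set against endothelial markers within each library, which removes the library scaling. Per 1000 CPM of vascular endothelial markers, the tumours had 0.174, 0.442 and 0.254 CPM of F8 and the livers had 50.9, 68.9 and 53.2. The groups stood apart by -7.73 on the log2 scale (exact two-sided permutation test, p = 0.1, the smallest possible). Part of this difference lies in the markers, which summed to 2898 to 6026 CPM in tumours and 229 to 302 in livers. The log2 fold change of F8 itself was -3.71. Against liver sinusoidal endothelial markers the difference was smaller, with 9.04, 4.72 and 10.2 CPM of F8 per 1000 marker CPM in tumours and 38.1, 60.4 and 43.9 in livers, a log2 difference of -2.62 (exact two-sided permutation test, p = 0.1). With the median marker level in place of the sum this second difference turned to 0.18 (exact p = 0.6). Of the 8 sinusoidal markers 6 fell, 1 rose and 1 did not pass, and their sums were 116 to 272 CPM in tumours and 306 to 366 in livers. Most of the tumour sums came from Fcgr2b (49.5, 117 and 45.9 CPM) and Lyve1 (35.8, 110 and 57.2 CPM), the markers that did not fall. In livers Fcgr2b had 63.5, 65.1 and 72.4 CPM and Lyve1 9.57, 15.3 and 14.0. The summed ratio in tumours therefore rests largely on these genes. The median log2 fold change of the sinusoidal list was -3.57, against -3.71 for F8.

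**Figure D3:**
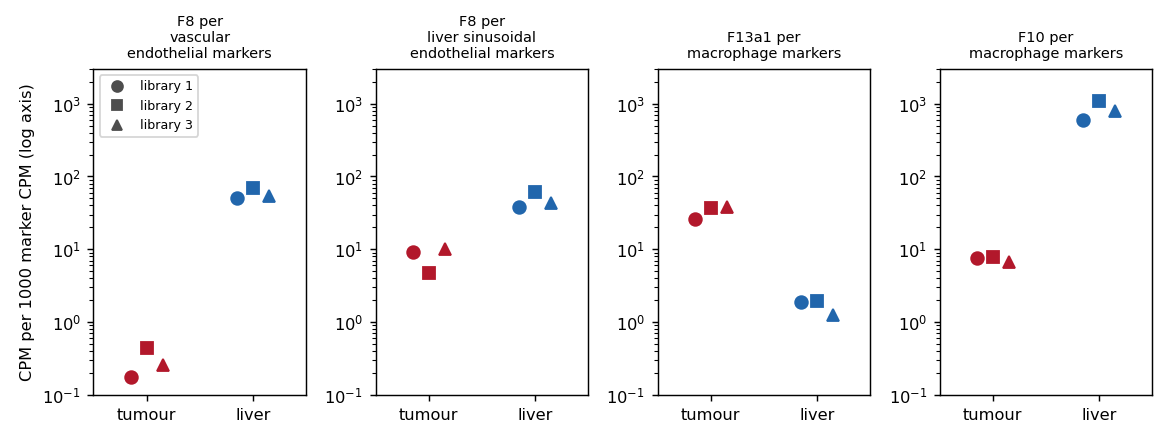
Level of a gene per 1000 CPM of a summed marker list on a log axis, 1 point per library, for F8 against vascular and sinusoidal endothelial markers and for F13a1 and F10 against macrophage markers. F8 is lower in tumours on both endothelial scales by summed markers (by the median sinusoidal marker the difference is 0.18), and F13a1 is higher in tumours on the macrophage scale, where tumours lie between 26.1 and 37.8 CPM. F10 is lower in tumours on that scale, at 6.68 to 7.91 CPM against 606 to 1089 in livers.

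F5 (factor V, ENSMUSG00000026579, chromosome 1, 164151838 to 164220277) had 25.3, 71.1 and 28.7 CPM for tumours and 685, 816 and 1057 CPM for livers. It kept 4.89% of the liver mean in tumours, with tumour 2 highest. It fell by 4.35 (SE 0.51, edgeR adjusted p = 0.000389), and its log2 fold change was -4.97 without tumour 2. Platelet and megakaryocyte markers, another known source of factor V, summed to 24.3 to 36.8 CPM in tumours and 10.2 to 12.3 in livers, and of the 6 tested 1 rose and 5 did not pass. The marker that rose was Pf4 (platelet factor 4), with 14.9, 31.2 and 17.6 CPM for tumours and 2.11, 1.17 and 1.77 for livers. Without Pf4 the sums of the groups overlapped. The 5 markers that did not pass had log2 fold changes from -0.57 to 0.89 with edgeR. Gp1bb, a platelet receptor chain, had 0, 0 and 1 counts for tumours and 0 in every liver. Gm16548, a lincRNA on the opposite strand, shares 262 exonic bases with F5 and had 6 to 9 counts in tumours and 89 to 143 in livers.

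The 2 subunits of factor XIII went opposite ways. F13a1 (A subunit, ENSMUSG00000039109, chromosome 13, 36867178 to 37050244) had 34.8, 179 and 40.0 CPM for tumours and 2.76, 1.04 and 1.53 CPM for livers. Every tumour exceeded every liver, and tumour 2 was well above the other tumours. F13a1 rose by 5.57 on the log2 scale (SE 0.83, edgeR adjusted p = 0.00119), by 4.40 without tumour 2 and by 6.85 with library totals alone. F13b (B subunit, ENSMUSG00000026368, chromosome 1, 139501702 to 139523752) had 9666, 7217 and 9743 counts for livers and 0, 4 and 0 for tumours, so that all its tumour counts lay in tumour 2. Its livers had 369 ± 48.9 CPM (SD, n = 3), and the ratio of livers to tumours was 16831 (95% exact interval from 6573 to 61778). The fitted change was -13.85 (SE 0.80, edgeR adjusted p = 2.22e-05) and -16.81 without tumour 2, where all remaining tumour counts are 0. The window of F13a1 is shown as that of the gene that rose (chr13:37050245-37050494, minus strand, RefSeq GRCm38.p6). Capitals mark GAGGAA, a motif of the PU.1 type that macrophage factors of the ETS family can bind, at -66 from the start site.
F13a1: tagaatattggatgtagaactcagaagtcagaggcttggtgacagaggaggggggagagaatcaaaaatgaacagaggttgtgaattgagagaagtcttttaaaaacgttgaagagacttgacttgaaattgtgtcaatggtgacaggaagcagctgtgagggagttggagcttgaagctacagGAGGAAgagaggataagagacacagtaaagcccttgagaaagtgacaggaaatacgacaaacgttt

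GAGGAA occurred in 23.3% of all windows, also in that of F7, and a second window of F13a1, from another start site, held none. Macrophage markers did not separate the tissues. Of 11, 2 rose, 1 fell and 8 did not pass, and their sums overlapped, at 1059 to 4851 CPM in tumours and 527 to 1441 in livers. None was at 0 in all tumours. Clec4f, the lectin that marks Kupffer cells, had 0, 2 and 4 counts for tumours and 5377, 1856 and 4967 for livers. Per 1000 CPM of macrophage markers, F13a1 was 26.1, 36.9 and 37.8 CPM for tumours and 1.91, 1.97 and 1.25 for livers, a log2 difference of 4.30 (exact two-sided permutation test, p = 0.1, the smallest possible).

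Tumour 2 was the highest tumour for 9 of the 10 genes in CPM, all but F8, although for F2 and F11 it led by 2 counts or fewer. Over all genes tested, 38.3% were highest in tumour 2. Its level was 7.01 times the mean of tumours 1 and 3 for F7, 4.78 times for F13a1, 4.42 for F10, 2.63 for F5, 1.90 for F3 and 1.08 for F8. Among the summed marker lists the same ratio was 5.37 for skeletal muscle, 4.06 for macrophages, 3.16 for mesothelium, 2.21 for sinusoidal endothelium, 1.45 for hepatocytes and 1.27 for platelets. It was 0.814 for fibroblasts, 0.515 for vascular endothelium and 0.207 for red cells. Most of the hepatocyte sum in tumours came from 1 gene, Cyp2e1, with 11.99, 11.33 and 5.68 CPM of 13.66, 15.49 and 7.76. The hepatocyte ratio of 1.45 therefore rests mainly on Cyp2e1. Of the 10 hepatocyte markers, 6 were highest in tumour 2, among them Alb with 1.15, 3.26 and 0.770 CPM. Per 1000 CPM of macrophage markers the tumours lay close together for F10, at 7.71, 7.91 and 6.68 CPM, against 606, 1089 and 787 for livers. For F7 the tumours were at 1.28, 2.20 and 1.27 and the livers at 113, 203 and 182. For F5 the tumours were at 19.0, 14.7 and 27.1 and the livers at 476, 1547 and 867. Per 1000 CPM of mesothelial markers F10 was 128, 155 and 92.2 CPM, and per 1000 CPM of skeletal muscle markers 7.31, 3.65 and 2.82. This comparison of tumour 2 was made after its values were seen, and the part of any cell type in it was not tested.

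**Figure D4:**
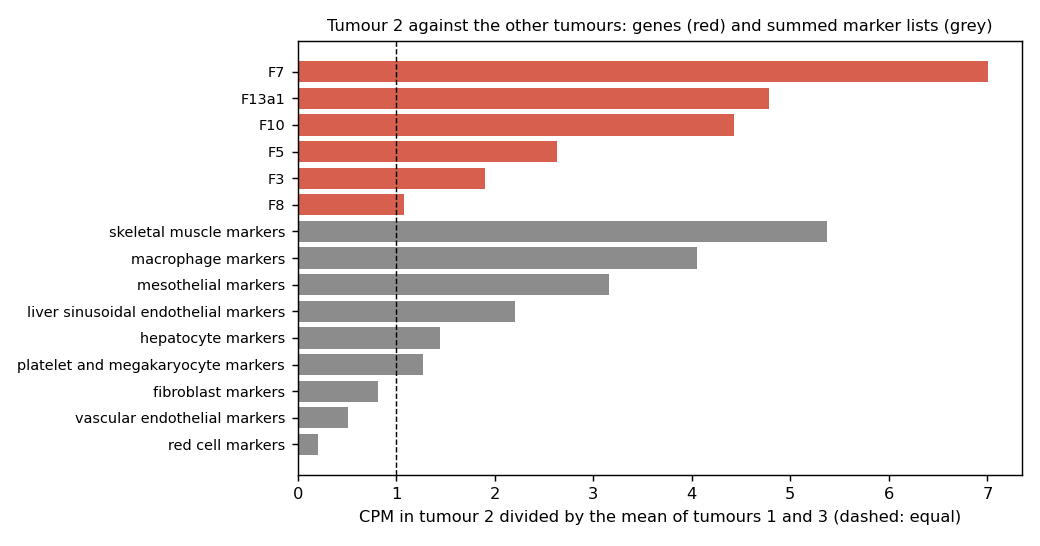
Bars give the CPM of tumour 2 divided by the mean of tumours 1 and 3, for 6 genes in red and for the sums of marker lists in grey, with a dashed line at equal levels. F7, F13a1 and F10 stand at 4.42 or more, beside skeletal muscle, macrophage and mesothelial markers at 5.37, 4.06 and 3.16, while F8 is at 1.08.

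Genes of the fibrinogen chains, the contact system and the vitamin K cycle fell together. All 3 fibrinogen chain genes, Fga, Fgb and Fgg, fell, with 0 to 13 counts per tumour and sums of 15509 to 45135 CPM in livers. All 4 contact system genes fell: F12 (factor XII), Kng1 and Kng2 (kininogens, paralogs whose reads may be shared) and Klkb1 (plasma prekallikrein), which had 0 counts in all tumours and was at least 4451-fold lower by a floor of 3 counts per library. The 3 genes of the vitamin K cycle, which the carboxylated factors need, also fell. With edgeR the log2 fold change was -2.23 (SE 0.27) for Ggcx, the carboxylase, -3.19 (SE 0.28) for Vkorc1, the vitamin K epoxide reductase, and -1.42 (SE 0.16) for its paralog Vkorc1l1. The Vkorc1l1 call was lost with library totals alone (edgeR adjusted p = 0.452) and with limma on FPKM, over alternatives from 9.64e-14 to 0.452.

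Of the 4 protease-activated receptors, through which thrombin and other proteases signal to cells, 3 rose and 1 did not pass, with a median log2 fold change of 3.28. F2r, the main thrombin receptor, had 203 ± 137 CPM among tumours against 23.5 ± 4.57 among livers, and was lowest in tumour 2, with 2620 counts against 17201 and 17700. F2rl1, a receptor for trypsin-like proteases and for the complex of tissue factor with factor VII, had 108 ± 50.9 and 0.302 ± 0.186 CPM, a rise of 8.46 (SE 0.66, edgeR adjusted p = 6.88e-05). F2rl3 rose by 3.45 (SE 1.12, edgeR adjusted p = 0.0334, alternatives up to 0.0948), a call lost without tumour 1 (0.0817), tumour 3 (0.0948), liver 2 (0.0889) or liver 3 (0.0622), and with limma-voom (0.0582), a 2-fold threshold (0.067) or the replicate block (0.0537). Its log2 fold change was 5.12 without liver 1. F2rl2 was at 1.34 ± 0.204 CPM among tumours against 0.381 ± 0.369 among livers (edgeR adjusted p = 0.165).

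Natural anticoagulants were divided: of 12 genes, 11 entered the test, of which 6 fell, 4 rose and 1 did not pass, with a median of -2.48. The gene that did not pass was Pros1 (protein S), with 98.0 ± 14.0 CPM among tumours against 91.2 ± 21.5 among livers. Its groups overlapped, and its log2 fold change was 0.10 (SE 0.22, edgeR adjusted p = 0.712). Thbd (thrombomodulin) had 147 ± 21.3 CPM among tumours against 4.67 ± 1.49 among livers, and Serpine2 (a thrombin inhibitor of tissues) 318 ± 132 and 4.36 ± 1.35, rises of 4.97 (SE 0.30) and 6.19 (SE 0.49) with edgeR. Serpinc1 (antithrombin) and Proc (protein C) fell, with 6 to 11 and 2 to 6 counts per tumour against at least 89720 and 12760 per liver, and Serpina10, an inhibitor of factor X, had 0 counts in all tumours and was at least 10946-fold lower by the same floor. Of 8 fibrinolysis genes 5 rose and 3 fell, with a median of 4.86. Serpine2 is in both lists and is counted among the rises of each. Plat (tissue plasminogen activator) had 772 ± 535 CPM among tumours against 1.01 ± 0.576 among livers, and Plaur (the urokinase receptor) 190 ± 46.0 and 1.85 ± 0.259. Plg (plasminogen), Cpb2 (a fibrinolysis inhibitor) and Serpinf2 (antiplasmin) fell, with 0 to 4 counts per tumour.

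Of 10 tested genes listed as regulators of tissue factor, 7 rose and 3 fell, with a median of 1.36. Tfpi, among those that rose, was also counted with the natural anticoagulants. The 3 that fell were the disulphide isomerase genes P4hb, at -2.41 (SE 0.29), and Pdia4, at -1.32 (SE 0.25), and Scarb2, a lysosomal membrane protein gene, at -1.48 (SE 0.24), with edgeR. With library totals alone the calls of Pdia4 (edgeR adjusted p = 0.908, the highest of its alternatives) and Scarb2 (0.418, likewise) were lost. They were also lost with limma on FPKM (adjusted p from 0.781 to 0.803 for Pdia4 and from 0.251 to 0.392 for Scarb2), and that of Pdia4 against a 2-fold threshold (0.0955).

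**Figure D5:**
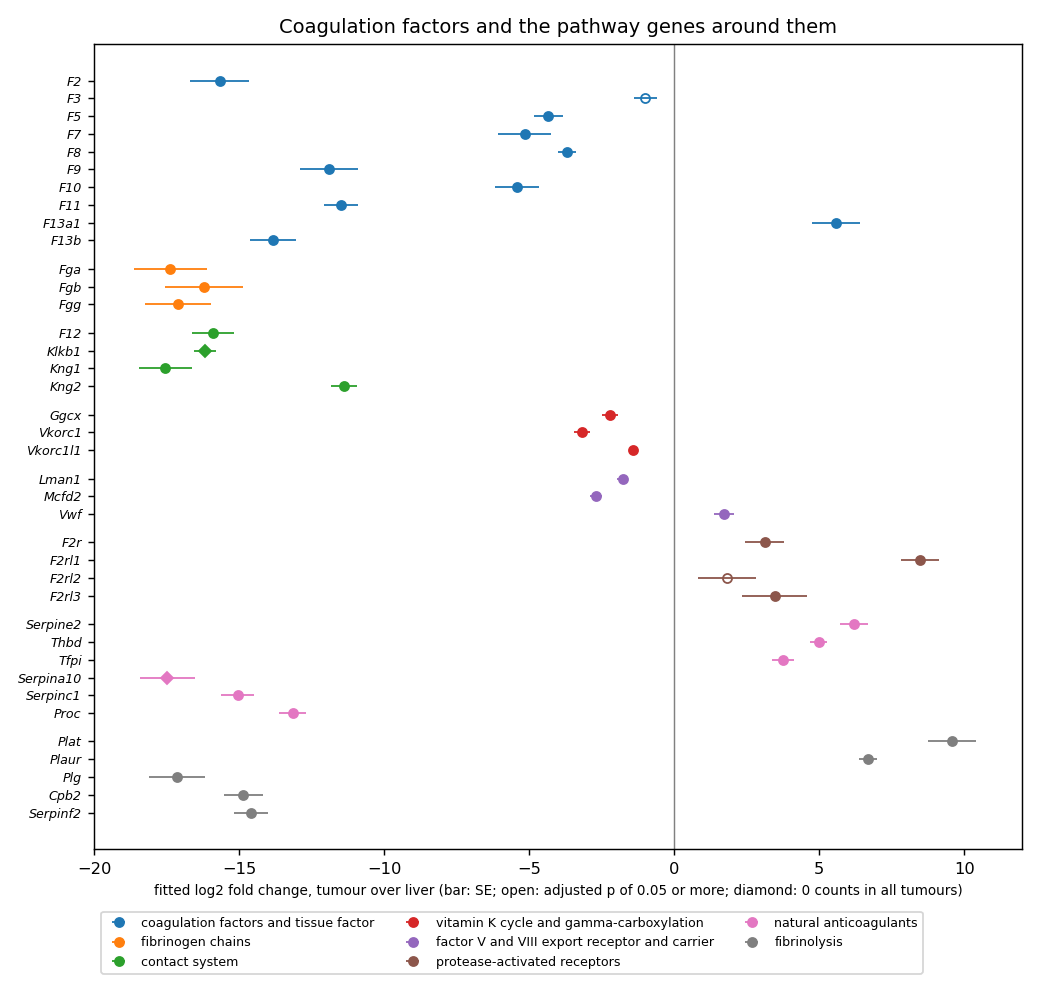
Fitted log2 fold changes of tumours over livers with their standard errors for the 10 genes and for the pathway genes named by rule, coloured by group, with open symbols for an adjusted p of 0.05 or more and diamonds for 0 counts in all tumours. Fibrinogen chain and contact system genes lie far to the left with F2, F9, F11 and F13b. F5, F7, F8 and F10 lie between -5.43 and -3.71, and F3 at -1.01 did not pass. F13a1 lies on the right with the protease-activated receptors, Vwf and part of the anticoagulant and fibrinolysis genes.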

How the data were processed

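Per the submitters' processing notes, HISAT2 2.1.0 and Cufflinks 2.2.1.3 were used with the mm10 build. Per the labels' protocols, tissue was kept frozen, RNA was isolated with a Qiagen kit and libraries followed the DNBSeq protocol. The deposited table holds whole-number counts per Ensembl gene. How reads were counted, on which annotation and with which strand setting is not given in the sources used here. Reads in the exonic bases that F5 shares with its antisense lincRNA cannot be assigned to either. Of the values between 1 and 10 counts, 55.0% to 70.7% per library were even, and intervals and floors would be too narrow if mates were counted singly, which was not tested. No molecular identifiers are mentioned, so reads may repeat molecules and intervals cover counting error alone. The deposited FPKM values served for levels between genes and for an alternative. An FPKM of 0 may mark an estimate that failed, since each library has it for 289 to 470 genes that have at least 100 counts.

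Samples were grouped by title; the design text names human, but labels and gene identifiers are mouse, which was followed. Counts were fitted with edgeR 4.0.16 (R 4.3.3): filterByExpr, TMM, a robust quasi-likelihood test without covariates, and Benjamini-Hochberg adjustment over all genes tested, with calls at 0.05. Each standard error was taken as the size of the fold change over the root of its F statistic. TMM factors were 1.52 to 1.62 in tumours and 0.61 to 0.68 in livers. Limma 3.58.1 and DESeq2 1.42.0 gave alternatives, and all tools were run on simulated data. In that simulation few genes changed, equally often up and down, so it did not test the scaling between tissues this different. Replicate pairs had a chi-square per degree of freedom of 105 or more, so none were merged. Coordinates are GENCODE release M21 (GRCm38, the assembly of mm10), and promoter windows with the 12 motifs searched in the 250 bases before a start site are from RefSeq, which matched all 10 genes. The bases after the start site were found near the start of a GENCODE transcript for each member window except that of F2. The 20 lists, that of the members included (145 of 146 entries matched), were chosen with earlier results of these data known. Named pathway genes were all genes of lists of up to 4, and otherwise the 3 called genes with the largest change in each direction at 1 CPM or more; 1 gene that this rule names is not reported here. Hnf4a, Gp1bb, Pf4, Clec4f, Fcgr2b, Lyve1, Cyp2e1, Alb and Pros1 fall outside that rule and were chosen after their values were seen.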

Additional observations from a re-analysis of the deposited data

How the results depend on the processing

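The counts of 8 genes lower and 1 higher among the 10 held within 1.5 times under all 19 alternatives, where 7 to 9 were lower and 1 was higher. F3 was added with DESeq2, limma-voom, without tumour 2 and without libraries 2 of both groups, and F8 was not tested under the FPKM filter. F3 turned to 0.26 with library totals alone, and to 0.12 and 0.15 by limma on log2(FPKM + 1), with and without a filter, and log2(FPKM + 0.1). Over all genes, 5137 were higher and 4982 lower. Library totals alone gave 10688 and 2172 (83.1% of calls higher in place of 50.8%, with the median change at 1.38 in place of 0.10), the test against a 2-fold change 3314 and 2916, limma on log2(FPKM + 1) 8613 and 2031, on log2(FPKM + 0.1) 8608 and 2019, and on log2(FPKM + 1) without a filter 9370 and 2152. F8 relative to sinusoidal markers turned from -2.62 to 0.18 with the median marker level, and F13a1 relative to macrophage markers moved from 4.30 to 5.51. The replicate numbers did not pair the samples (same-number correlations of -0.031, -0.011 and -0.028), and no sample correlated best with its own number. With a replicate block 8 of the 10 genes were lower and 1 higher, with 4516 genes higher and 4574 lower over all. Low counts limit F2, F9, F11 and F13b in tumours to intervals of counting error, and F3 and F8 rest on 64 to 466 counts per library. The cause of none of these shifts was tested.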
